A study of Mus musculus with 12 samples.

Results

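Immediate early genes are the genes that cells switch on within minutes of a stimulus, from transcription factors that are already present. The 10 genes described here, Fos, Fosb, Jun, Junb, Egr1, Egr3, Npas4, Nr4a1, Ier2 and Arc, were taken by gene symbol from the 40912 genes of the count table, and all 10 passed the filter on low counts that left 15905 genes for testing. RNA was sequenced from the spinal cord of mice at postnatal day 21. Both lines carry a transgene for the ribosomal protein Rpl10a tagged with EGFP, driven by Chat sequences in Tg(Chat-EGFP/Rpl10a)DW167Htz and by Snap25 sequences in Tg(Snap25-EGFP/Rpl10a)JD362Jdd. Chat makes acetylcholine and marks cholinergic neurons, which include motor neurons, and Snap25 is a synaptic protein of neurons in general. PreIP_Chat and PreIP_Snap25 are the input RNA before immunopurification, and TRAP_Chat and TRAP_Snap25 are the RNA bound to the tagged ribosomes after 4 h of immunopurification at 4 °C, with 3 libraries in each of the 4 groups. The labels name no stimulus or treatment and do not state whether a group's 3 libraries are separate animals. P-values therefore measure the spread between these libraries, which may be technical.

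In neurons, calcium entry and kinase cascades activate the transcription factors SRF and CREB at the promoters of these genes, and their messenger RNAs are short-lived because proteins that bind AU-rich elements send them to decay. Fos and Jun family proteins pair to form the transcription factor AP-1, the Egr proteins are zinc finger transcription factors, Nr4a1 is an orphan nuclear receptor, and Npas4 is a transcription factor that responds to neuronal activity. Arc is not a transcription factor but acts at synapses, where it takes part in the removal of AMPA receptors.

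Libraries held 10149346 to 20521699 counts. Levels are CPM, the counts of a gene scaled to a common library size after TMM normalization, and 1 count was worth 0.0521 to 0.102 CPM. All 10 markers of cholinergic motor neurons passed the test as higher in TRAP_Chat than in its input, with a summed level of 2613 to 4163 CPM against 404 to 424 CPM. The 8 markers of oligodendrocytes all passed as lower in both pulldowns, and none of the 8 was at 0 in any group: their sum was 15041 to 20437 CPM in the inputs, 1835 to 5207 CPM in TRAP_Chat and 1433 to 4374 CPM in TRAP_Snap25. The 6 markers of inhibitory neurons summed to 789 to 864 CPM in PreIP_Chat, 126 to 237 CPM in TRAP_Chat and 908 to 1255 CPM in TRAP_Snap25, and none of them was at 0 in any group. In such bulk libraries fewer cells of a type and less RNA per cell cannot be told apart.

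In the input RNA the genes spanned a wide range of levels. Per length, as CPM per kilobase of exon in GENCODE M21, Egr1 was highest in the 6 input libraries at 18.4 to 42.8, followed by Jun at 10.9 to 15.9 and Arc at 5.57 to 12.8. Fos, the most widely used marker of neuronal activation, lay at 1.82 to 5.93, Nr4a1 at 1.73 to 2.63 and Ier2 at 0.903 to 2.44. Junb lay at 0.584 to 1.12, Npas4 at 0.251 to 0.716, Egr3 at 0.163 to 0.842 and Fosb at 0.147 to 0.665. Egr1 and Jun were the only neighbours in this order whose ranges did not overlap. Jun shares 232 exonic bases with Junos and Junb shares 173 with Prdx2, both on the opposite strand, and whether strand was used in counting is not given in the sources used here, so reads in those stretches cannot be assigned with certainty.

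None of the 10 genes passed the edgeR quasi-likelihood test between the inputs of the lines, PreIP_Chat and PreIP_Snap25, and 0 of the 10 had an unadjusted p under 0.05. Of all tested genes, 0% were called higher and 0% lower (0 of 15905, of which 133 had an unadjusted p under 0.05), while DESeq2 called 1 gene higher and limma voom called 0. Egr1 measured 136 ± 47.2 CPM in PreIP_Chat and 137 ± 50.9 CPM in PreIP_Snap25 (SD, n = 3 each), and Jun measured 41.1 ± 5.42 CPM and 40.5 ± 8.99 CPM (SD, n = 3 each). Nr4a1 was the member whose inputs did not overlap, with 7.30 to 9.22 CPM in PreIP_Chat above 6.06 to 6.34 CPM in PreIP_Snap25 and a log2 fold change of 0.42 ± 0.51. The largest of the 10 log2 fold changes was that of Egr3, 0.84 ± 0.75, where 1.06 to 3.71 CPM in PreIP_Chat overlapped 0.717 to 1.42 CPM in PreIP_Snap25.

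RefSeq promoters on GRCm38.p6, from 250 bases before to 50 bases after the listed start, were at hand for 6 of the 10 genes: Fos, Fosb, Jun, Junb, Npas4 and Nr4a1. They were searched on both strands for TGACG, the core of the CREB site, for GCGNGGGCG, the site of Egr proteins, for TGANTCA, the AP-1 site, and for the CArG box bound by SRF. TGACG was found in 5 of the 6, against 20.8% of the 32851 promoters in the table, and GCGNGGGCG in 2 of the 6, Fosb and Nr4a1, against 5.55%. TGANTCA and the CArG box were in none of the 6 windows, against 7.81% and 1.63% of all promoters. Sites further from the start, and any sites of Egr1, Egr3, Ier2 and Arc, could not be seen. The search thus does not show that these genes lack them. A match describes letters in a window and not a bound site. The windows of Jun, Nr4a1 and Fos are shown because Jun was higher and Nr4a1 lower in TRAP_Chat than in TRAP_Snap25 while Fos did not pass that test, with matches to TGACG and to GCGNGGGCG in capitals, on either strand, so that those of Nr4a1 appear as reverse complements.
Fos, chr12:85473640-85473939, + strand: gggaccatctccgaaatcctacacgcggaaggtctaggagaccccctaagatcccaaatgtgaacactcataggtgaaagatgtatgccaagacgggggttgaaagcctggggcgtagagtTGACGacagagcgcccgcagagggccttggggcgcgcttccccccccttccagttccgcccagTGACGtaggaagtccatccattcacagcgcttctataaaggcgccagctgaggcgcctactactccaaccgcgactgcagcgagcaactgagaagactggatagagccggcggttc
Jun, chr4:95052173-95052472, - strand: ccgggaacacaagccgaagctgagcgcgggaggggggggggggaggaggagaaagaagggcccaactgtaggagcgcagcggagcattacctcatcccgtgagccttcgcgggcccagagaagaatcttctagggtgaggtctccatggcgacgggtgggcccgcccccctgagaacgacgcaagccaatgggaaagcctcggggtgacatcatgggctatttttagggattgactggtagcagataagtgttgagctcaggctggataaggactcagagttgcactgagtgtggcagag
Nr4a1, chr15:101266596-101266895, + strand: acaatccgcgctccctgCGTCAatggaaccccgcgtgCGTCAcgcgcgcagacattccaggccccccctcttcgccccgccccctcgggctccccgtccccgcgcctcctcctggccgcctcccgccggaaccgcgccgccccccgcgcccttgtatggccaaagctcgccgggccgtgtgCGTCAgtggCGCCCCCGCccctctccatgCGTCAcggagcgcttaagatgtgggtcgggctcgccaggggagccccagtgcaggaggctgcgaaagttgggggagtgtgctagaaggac
The Nr4a1 window held 4 matches to TGACG and 1 to GCGNGGGCG, which do not overlap, the Fos window held 2 matches to TGACG, and the Jun window held none of the motifs searched.

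In the ribosome-bound RNA of the Chat line, Egr1, Egr3 and Nr4a1 were lower than in the input, by 3.29-fold, 5.61-fold and 4.51-fold. No member passed as higher, although every TRAP_Chat library exceeded every input library for Jun and for Ier2. These are 3 lower and 0 higher of 10, where 14.3% of all tested genes were called lower and 12.6% higher (edgeR quasi-likelihood test, Benjamini-Hochberg adjusted p under 0.05). Before adjustment, at the same limit, 4 members were lower and 2 higher, where 3308 and 2897 of the 15905 tested genes were. The call of Egr3 was lost in 6 of 22 alternative analyses, and Arc, not called here, passed as lower in 6 of 22. Both DESeq2 and limma voom called 1 member higher. The median log2 fold change of the 10 was -1.47, against -0.06 over all tested genes.

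**Figure D1:**
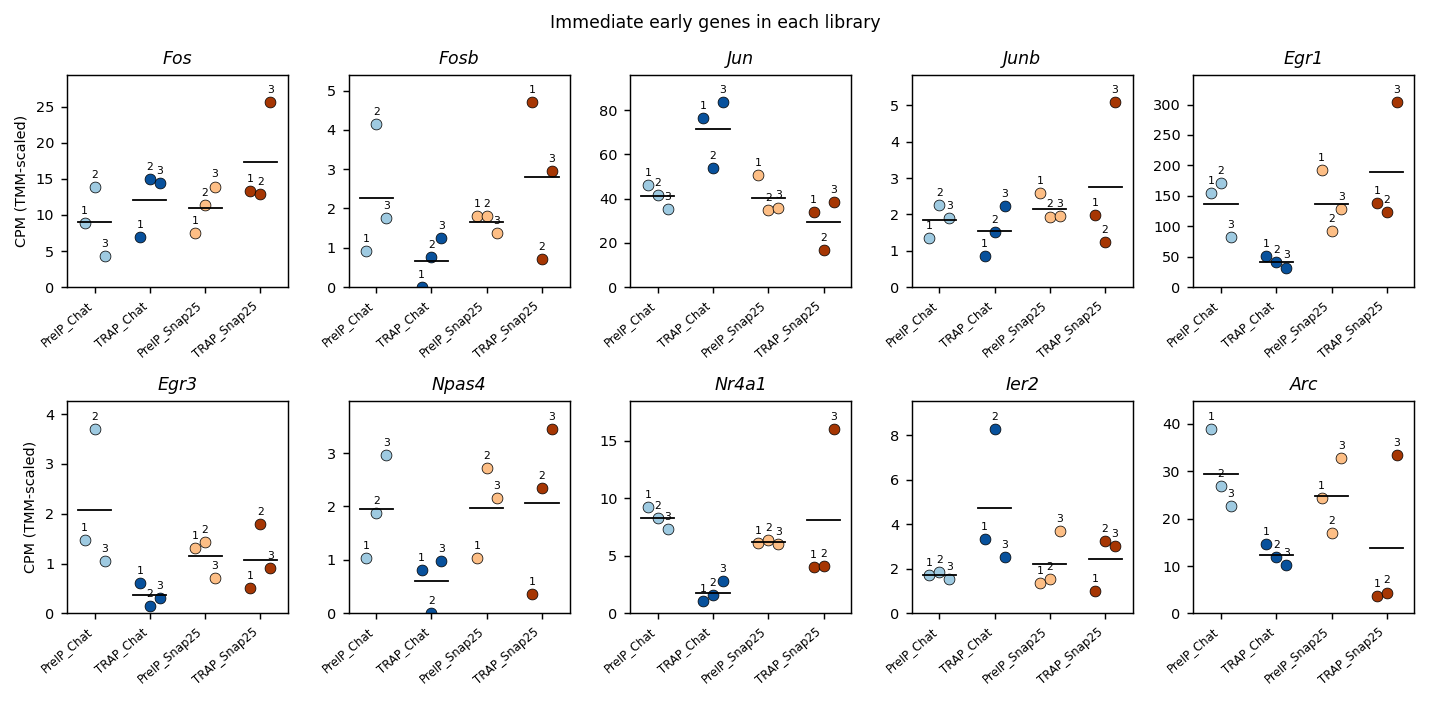
CPM after TMM scaling (vertical axis, linear from 0, with its own range for each gene) of the 10 immediate early genes in the 12 libraries, by group; points are libraries, numbered by replicate, and bars are group means. The TRAP_Chat points of Egr1, Egr3 and Nr4a1 lie under all input points of the line, and TRAP_Snap25 replicate 3 stands above the other pulldown points of its line for Egr1, Nr4a1 and Arc.

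Among the subunits of AP-1, Jun measured 46.2, 41.7 and 35.4 CPM in the PreIP_Chat libraries 1 to 3 and 76.4, 54.0 and 83.6 CPM in the TRAP_Chat libraries. All 3 pulldown values were above all 3 input values, yet the log2 fold change of 0.80 ± 0.30 (SE) had an adjusted p of 0.0565 in edgeR and did not pass. It passed without TRAP_Chat replicate 2 (1.01, adjusted p = 0.0360), TRAP_Snap25 replicate 2 (0.79, 0.0246) or TRAP_Snap25 replicate 3 (0.79, 0.0368), and in 10 of 22 alternatives in all. Fos measured 8.85, 13.9 and 4.28 CPM in the input and 6.98, 15.04 and 14.4 CPM in the pulldown, which overlapped, and its log2 fold change was 0.43 ± 0.44 (edgeR adjusted p = 0.50). Fosb, a relative of Fos, measured 0.916, 4.15 and 1.75 CPM in the input and 0, 0.756 and 1.25 CPM in the pulldown. The 0 stands for no count in TRAP_Chat replicate 1, where 3 counts would be 0.185 CPM, and the groups overlapped (log2 fold change -1.74 ± 0.95, edgeR adjusted p = 0.187). Junb lay between 0.865 and 2.27 CPM in the 6 libraries of the line, with a log2 fold change of -0.25 ± 0.63 (edgeR adjusted p = 0.798) that came to 0.03 without TRAP_Chat replicate 1.

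Of the other transcription factors, Egr1 showed the clearest difference. It measured 154, 171 and 82.4 CPM in the PreIP_Chat libraries and 51.2, 40.7 and 32.2 CPM in the TRAP_Chat libraries. The groups did not overlap, the means were 136 ± 47.2 and 41.3 ± 9.52 CPM (SD, n = 3 each), and the log2 fold change was -1.72 ± 0.37 with an edgeR adjusted p of 0.00342. Nr4a1 measured 9.22, 8.31 and 7.30 CPM in the input and 1.05, 1.59 and 2.81 CPM in the pulldown. Again no library overlapped, and the log2 fold change was -2.17 ± 0.54 with an edgeR adjusted p of 0.00805. Egr1 and Nr4a1 passed the test as lower in 22 of 22 alternative analyses, which included leaving out each library in turn. The libraries of the Snap25 line lie outside this comparison and enter only its filter, scaling and estimate of the spread.

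Egr3, which like Egr1 binds GC-rich sites, measured 1.47, 3.71 and 1.06 CPM in the input and 0.618, 0.151 and 0.312 CPM in the pulldown, or 10, 2 and 6 counts. All pulldown values were below all input values, and the log2 fold change of -2.49 ± 0.81 passed with an edgeR adjusted p of 0.0312. That call was lost without PreIP_Chat replicate 1 (-2.70), PreIP_Chat replicate 2 (-1.78), TRAP_Chat replicate 2 (-2.11) or TRAP_Chat replicate 3 (-2.39). It was also lost when libraries were scaled by their totals alone (-2.19, edgeR adjusted p = 0.0568). A fit that paired each input with the pulldown of the same number lost it too. Egr3 thus passed as lower in 16 of 22 alternatives. Npas4 measured 1.04, 1.88 and 2.96 CPM in the input and 0.803, 0 and 0.989 CPM in the pulldown, where TRAP_Chat replicate 2 had no count and 3 counts would be 0.227 CPM. The groups did not overlap, but the log2 fold change of -1.67 ± 0.95 did not pass (edgeR adjusted p = 0.204).

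Ier2, a short nuclear protein that serum and growth factors induce, measured 1.71, 1.88 and 1.53 CPM in the input and 3.34, 8.31 and 2.55 CPM in the pulldown. The pulldown values were all higher, with replicate 2 far above the others, and the log2 fold change of 1.46 ± 0.63 did not pass (edgeR adjusted p = 0.0965). Arc, the synaptic effector, measured 39.0, 26.9 and 22.6 CPM in the input and 14.6, 11.9 and 10.2 CPM in the pulldown. These groups did not overlap either, and the log2 fold change of -1.27 ± 0.59 did not pass in the edgeR fit of all 12 libraries (adjusted p = 0.124). Arc passed as lower in 6 of 22 alternatives with log2 fold changes close to that value, among them limma voom (-1.24, adjusted p = 0.0443), edgeR without a filter on low counts (-1.29, 0.00222) and edgeR on only the groups compared (-1.26, 0.00562). Without TRAP_Snap25 replicate 3, a library outside this comparison that shares its estimate of the spread, the log2 fold change of Arc was still -1.27 and its adjusted p was 0.00484.

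The markers of inhibitory neurons fell beside these genes, 6 of 6 with a median log2 fold change of -2.17, and of the markers of glutamatergic neurons 3 of 5 fell and 1 rose, with a median of -1.47 and a summed level of 137 to 146 CPM in the input and 94.6 to 108 CPM in the pulldown. RNAs listed as nuclear or mitochondrial fell as well, 6 of 7 tested nuclear RNAs with a median of -2.96 and 8 of 9 tested transcripts of the mitochondrial genome with a median of -3.20. The exception among the nuclear RNAs was Gas5, at 95.2 ± 30.1 CPM in PreIP_Chat and 170 ± 81.9 CPM in TRAP_Chat (SD, n = 3 each). TRAP_Chat replicate 1 stood apart in both lists: its mitochondrial transcripts summed to 61643 CPM against 3233 and 3266 CPM in replicates 2 and 3, and its nuclear RNAs to 1350 CPM against 323 and 470 CPM. Without this library Egr1, Egr3 and Nr4a1 still passed as lower, with Egr3 at -3.09 (edgeR adjusted p = 0.0276). The part of these markers and RNAs in the lower levels of Egr1, Egr3 and Nr4a1 was not tested.

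**Figure D2:**
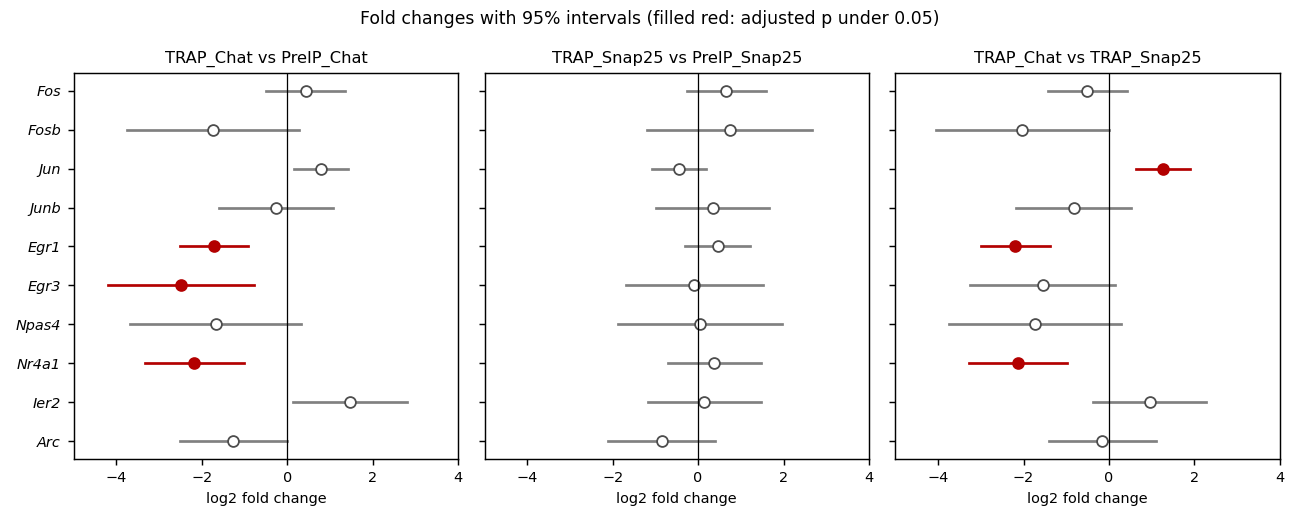
Log2 fold changes (horizontal axis) of the 10 immediate early genes with 95% intervals from the edgeR fit, in the comparisons of each pulldown with its input and of TRAP_Chat with TRAP_Snap25; filled red points have an adjusted p under 0.05. Egr1 and Nr4a1 are filled and below 0 in the first and last panels, Egr3 in the first and Jun, above 0, in the last, and no point is filled in the TRAP_Snap25 panel.

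In the Snap25 line none of the 10 genes passed the test against the input. The counts were 0 higher and 0 lower, where 9.69% of all tested genes were called higher and 12.7% lower. An unadjusted p under 0.05 in edgeR was found for 0 members, and for 5609 of the 15905 tested genes. DESeq2 called 0 members, and limma voom called 1, Arc, as lower. The median log2 fold change of the 10 was 0.24, against -0.004 over all tested genes. For every member the range of the pulldown libraries overlapped that of the input. Of the markers of neurons, 5 of 10 of cholinergic motor neurons passed as higher in TRAP_Snap25 than in its input (median log2 fold change 1.14), 2 of 10 of neurons in general (0.65) and 2 of 5 of glutamatergic neurons (0.76). Of the 6 markers of inhibitory neurons 0 passed in edgeR, DESeq2 or limma voom, with 3 higher at an unadjusted p under 0.05 in edgeR and a median of 0.43. Nuclear RNAs fell in 5 of 7 cases and transcripts of the mitochondrial genome in 9 of 9.

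Egr1 measured 192, 91.4 and 128 CPM in the PreIP_Snap25 libraries 1 to 3 and 139, 124 and 304 CPM in the TRAP_Snap25 libraries. Pulldown replicate 3 was the highest of the 12 libraries, the others lay within the range of the input, and the log2 fold change of 0.46 ± 0.36 (edgeR adjusted p = 0.394) was -0.07 without that library. Nr4a1 measured 6.16, 6.34 and 6.06 CPM in the input and 4.04, 4.13 and 16.1 CPM in the pulldown. Here replicates 1 and 2 lay below every input library and replicate 3 above, and the log2 fold change of 0.37 ± 0.52 (edgeR adjusted p = 0.648) turned to -0.61 without replicate 3.

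Arc was also uneven between the pulldown libraries. It measured 24.5, 17.0 and 32.8 CPM in the input and 3.75, 4.41 and 33.5 CPM in the pulldown. Replicates 1 and 2 were far below the input and replicate 3 was at its upper end, so that the log2 fold change was -0.85 ± 0.59 (edgeR adjusted p = 0.323) with all libraries and -2.60 (adjusted p = 0.000209) without replicate 3. Jun measured 50.8, 34.6 and 36.0 CPM in the input and 33.8, 16.7 and 38.3 CPM in the pulldown, with a log2 fold change of -0.46 ± 0.30 (edgeR adjusted p = 0.293). Fos measured 7.53, 11.3 and 13.9 CPM in the input and 13.4, 13.0 and 25.6 CPM in the pulldown, with replicate 3 again the highest (log2 fold change 0.66 ± 0.44, edgeR adjusted p = 0.303). Fosb measured 1.37 to 1.81 CPM in the input and 4.70, 0.726 and 2.95 CPM in the pulldown, so here replicate 1 was the highest (log2 fold change 0.74 ± 0.91, edgeR adjusted p = 0.607).

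The other members were low in both fractions of the Snap25 line. Junb measured 1.94 to 2.58 CPM in the input and 1.98, 1.228 and 5.09 CPM in the pulldown, and Egr3 0.717 to 1.42 CPM and 0.514, 1.79 and 0.915 CPM. Npas4 measured 1.04, 2.72 and 2.15 CPM in the input and 0.367, 2.34 and 3.46 CPM in the pulldown, and Ier2 1.37, 1.55 and 3.71 CPM and 1.03, 3.24 and 3.05 CPM. Replicate 3 of the pulldown was the highest of its group for Junb and Npas4 but not for Egr3 or Ier2.

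TRAP_Snap25 replicate 3 also stood apart in other measures. It was the library with the fewest counts, 10149346, and its oligodendrocyte markers summed to 4374 CPM against 1828 and 1433 CPM in replicates 1 and 2. Its nuclear RNAs, such as Malat1, summed to 1210 CPM against 451 and 346 CPM, and its cholinergic motor neuron markers to 787 CPM against 467 and 466 CPM. Their part in the levels of Egr1, Nr4a1, Arc, Junb and Fos in this library was not tested.

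**Figure D3:**
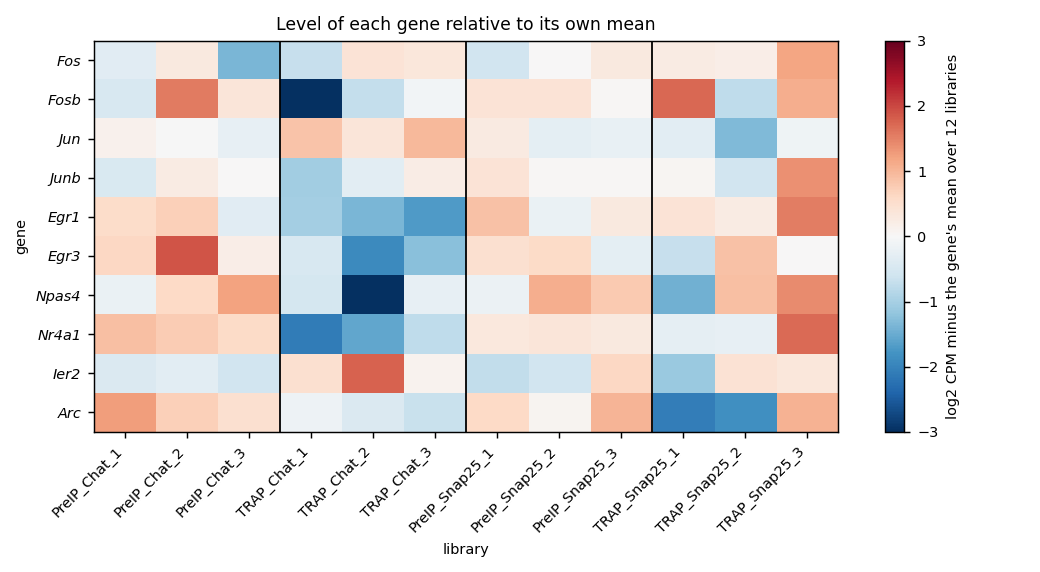
Log2 CPM (prior count 2) of each immediate early gene (rows) in the 12 libraries (columns, with lines between groups) minus the gene's mean over all libraries; red is above and blue below that mean, and values under -3, the libraries with no count of Fosb or Npas4, are drawn at -3. The TRAP_Chat columns are blue for Egr1, Egr3 and Nr4a1 and red for Jun and Ier2, except replicate 3 of Ier2, which is near white, and TRAP_Snap25 replicate 3 is red for Fos, Fosb, Junb, Egr1, Npas4, Nr4a1 and Arc.

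Set against each other, the pulldowns of the lines differed in 3 members. Jun was 2.42-fold higher in TRAP_Chat than in TRAP_Snap25, Egr1 was 4.57-fold lower and Nr4a1 was 4.37-fold lower. These are 1 higher and 2 lower of 10, where 3.97% of all tested genes were called higher and 2.77% lower (edgeR quasi-likelihood test, Benjamini-Hochberg adjusted p under 0.05). The median log2 fold change of the 10 was -1.19, against 0.008 over all tested genes.

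For Jun, the TRAP_Chat values of 54.0 to 83.6 CPM all lay above the TRAP_Snap25 values of 16.7 to 38.3 CPM, and the log2 fold change was 1.27 ± 0.30 (edgeR adjusted p = 0.0172). The call was lost without TRAP_Chat replicate 3 (1.14, adjusted p = 0.0569) or TRAP_Snap25 replicate 2 (0.99, adjusted p = 0.0613), and it passed in 19 of 22 alternatives. For Egr1, the TRAP_Chat values of 32.2 to 51.2 CPM all lay below the TRAP_Snap25 values of 124 to 304 CPM, and the log2 fold change was -2.19 ± 0.38 (edgeR adjusted p = 0.00213). It passed in 22 of 22 alternatives, with -1.67 without TRAP_Snap25 replicate 3. Nr4a1 lay at 1.05 to 2.81 CPM in TRAP_Chat and 4.04 to 16.1 CPM in TRAP_Snap25, again with no overlap, and its log2 fold change was -2.13 ± 0.55 (edgeR adjusted p = 0.0263). That call was lost without TRAP_Snap25 replicate 3 (-1.16, adjusted p = 0.126), TRAP_Chat replicate 1 (-1.84, adjusted p = 0.0841) or TRAP_Chat replicate 2 (-2.01, adjusted p = 0.0792). It was also lost with limma voom, with only the groups compared, and with TRAP_Chat replicate 1 and TRAP_Snap25 replicate 3 both left out.

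The other members overlapped between the pulldowns and did not pass. The log2 fold change was -2.03 ± 0.96 for Fosb (edgeR adjusted p = 0.229), -1.73 ± 0.95 for Npas4 (0.312), -1.55 ± 0.81 for Egr3 (0.279) and -0.51 ± 0.44 for Fos (0.556). Ier2 had 0.95 ± 0.63 (edgeR adjusted p = 0.412). Arc had -0.16 ± 0.59 (edgeR adjusted p = 0.918), since TRAP_Chat at 10.2 to 14.6 CPM lay between TRAP_Snap25 replicates 1 and 2 at 3.75 and 4.41 CPM and replicate 3 at 33.5 CPM. Without replicate 3 the direction turned, and Arc was higher in TRAP_Chat with a log2 fold change of 1.58 (edgeR adjusted p = 0.0129). Markers of inhibitory neurons were lower in TRAP_Chat than in TRAP_Snap25, 6 of 6 with a median of -2.59 on the log2 scale, and their part in the values of Egr1 and Nr4a1 was not tested.

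**Figure D4:**
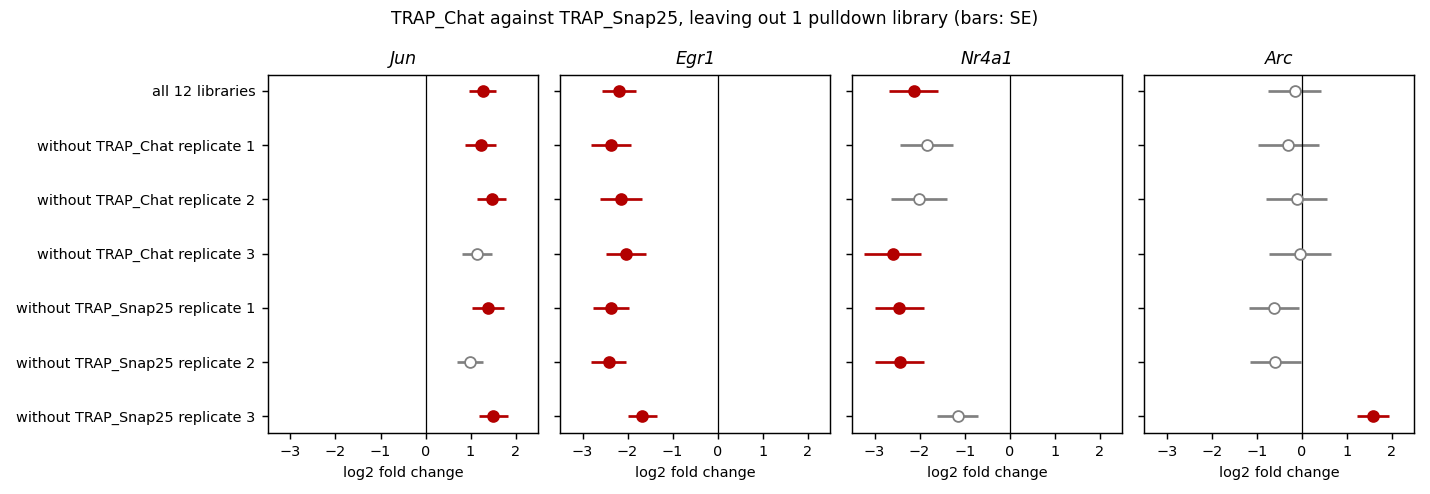
Log2 fold change of TRAP_Chat against TRAP_Snap25 (horizontal axis, with SE bars) for Jun, Egr1, Nr4a1 and Arc, with all 12 libraries and with 1 pulldown library left out (rows); filled red points have an edgeR adjusted p under 0.05. Egr1 stays filled in every row, Jun and Nr4a1 are open in 2 and 3 rows, and Arc crosses from -0.16 to 1.58 without TRAP_Snap25 replicate 3.

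Whether the change from input to pulldown differed between the lines was tested directly, and no member passed. Of all tested genes 0.604% were called higher and 0.44% lower in this test, and the 10 members gave 0 and 0. At an unadjusted p under 0.05 in edgeR 1 member was higher and 3 lower, where 968 and 865 of the 15905 tested genes were. DESeq2 called 2 members lower and limma voom 1. The difference (Chat minus Snap25 line) was -2.18 ± 0.52 on the log2 scale for Egr1 with an edgeR adjusted p of 0.0528, and its alternatives gave adjusted p from 1.28e-05 to 0.172. It passed in 9 of 21 of them, among these the fits without PreIP_Chat replicate 3 (-2.44, adjusted p = 0.0463) and without TRAP_Snap25 replicate 2 (-2.40, 0.0360). For Nr4a1 it was -2.55 ± 0.75 (edgeR adjusted p = 0.126), for Egr3 -2.40 ± 1.10 (0.414) and for Jun 1.25 ± 0.42 (0.208). The changes of Egr1, Egr3 and Nr4a1 from input to pulldown are thus not shown by this edgeR test to differ between the lines.

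The members did not vary as a block from library to library. The biological coefficient of variation, the spread between replicates beyond counting noise in the edgeR fit, was 0.262 for Jun and 0.315 for Egr1, 0.377 to 0.583 for Fos, Nr4a1, Arc, Junb, Ier2 and Egr3, and 0.708 and 0.717 for Npas4 and Fosb, against a median of 0.330 over all tested genes. That median covers genes of all levels, while only 14.5% to 25.5% of tested genes were lower in level than Egr3, Npas4, Fosb, Junb or Ier2. The part of level in their spread was not tested. After subtraction of group means, the log2 levels of Junb and Nr4a1 correlated with a Pearson r of 0.87 over the 12 libraries, Egr1 and Arc with 0.76, Nr4a1 and Arc with 0.75 and Fosb and Junb with 0.72. Jun and Ier2 had the lowest value, -0.53. These values are descriptions over libraries that share their scaling, and some turned between the fractions. Junb and Nr4a1 had 0.95 over the 6 pulldown libraries, which include TRAP_Snap25 replicate 3, and -0.52 over the 6 inputs. Fosb and Egr3, at -0.34 over all 12, had -0.85 over the pulldowns and 0.77 over the inputs. Egr1 and Arc (0.94 and 0.57), Nr4a1 and Arc (0.78 and 0.47), Fosb and Junb (0.70 and 0.85) and Jun and Ier2 (-0.59 and -0.37) kept their sign in pulldowns and inputs. TRAP_Snap25 replicate 3, the highest pulldown of its line for Egr1, Nr4a1 and Arc, enters their pulldown values too. The correlations without it were not computed.

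A further 44 immediate early genes, such as other Egr, Nr4a and Klf factors and the phosphatase genes of the Dusp family, were described as a related list. In TRAP_Chat against its input 3 passed as higher and 8 as lower, with a median log2 fold change of -0.16. These are 6.82% and 18.2% of the list, against 12.6% and 14.3% of all tested genes. Ier3, a regulator of cell survival, rose from 11.8 ± 3.78 to 31.5 ± 8.21 CPM and Dusp1, a phosphatase that inactivates MAP kinases, from 42.7 ± 10.5 to 109 ± 36.0 CPM (SD, n = 3 each). Rgs2, a regulator of G protein signalling, was the other gene called higher (0.92 ± 0.28 on the log2 scale, edgeR adjusted p = 0.0235), a call lost when any 1 of the 3 PreIP_Chat libraries or TRAP_Chat replicate 1 was left out. Egr2, which Schwann cells also use for myelination, fell from 5.62 ± 4.29 to 0.120 ± 0.108 CPM, Nr4a3 from 7.61 ± 4.62 to 0.937 ± 0.601 CPM and Sgk1, a kinase that glucocorticoids induce, from 131 ± 84.2 to 36.6 ± 11.3 CPM (SD, n = 3 each). The edgeR adjusted p was 0.00132 for Egr2, 0.00370 for Nr4a3 and 0.00214 for Sgk1. Ier3, Dusp1, Egr2, Nr4a3 and Sgk1 passed in 22 of 22 alternatives.

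In TRAP_Snap25 against its input the same list gave 1 gene higher and 5 lower, with a median of -0.21, or 2.27% and 11.4% of the list against 9.69% and 12.7% of all tested genes. Rgs2 rose by 1.22 ± 0.28 on the log2 scale and Zfp36 was lower at -3.02 ± 0.49, both in 22 of 22 alternatives, while Egr2 was lower at -3.25 ± 0.92 in 19 of 22 and Atf3 at -2.85 ± 0.98 in 5 of 21. The call of Egr2 was lost without PreIP_Snap25 replicate 1 or TRAP_Snap25 replicate 1 or 2. Between the pulldowns 0 of the 44 passed as higher in edgeR (6 at an unadjusted p under 0.05, 1 in DESeq2, 0 in limma voom) and 2 as lower. Nr4a2, a close relative of Nr4a1, measured 1.43 ± 0.467 CPM in TRAP_Chat and 5.83 ± 2.06 CPM in TRAP_Snap25, and Plk2, a kinase of synapses, 10.7 ± 3.61 and 26.7 ± 2.73 CPM (SD, n = 3 each, edgeR adjusted p = 0.0134 and 0.0117). The call of Nr4a2 was lost without TRAP_Snap25 replicate 2, and those of Nr4a2 and Plk2 were both lost when only the groups compared were fitted.

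Of 30 kinases and transcription factors upstream of these genes, 2 passed as higher and 9 as lower in TRAP_Chat against input, with a median of -0.46. These are 6.67% and 30.0% of the list, against 12.6% and 14.3% of all tested genes. Camk4, a nuclear calcium-dependent kinase that acts on CREB, measured 36.6 ± 4.62 CPM in PreIP_Chat, 13.9 ± 2.39 CPM in TRAP_Chat and 43.6 ± 10.5 CPM in TRAP_Snap25 (SD, n = 3 each). It was lower in TRAP_Chat both against its input (-1.39 ± 0.32) and against TRAP_Snap25 (-1.64 ± 0.32), each in 22 of 22 alternatives. Camkk2, the kinase that activates Camk4, was lower in TRAP_Chat than in TRAP_Snap25 at -1.50 ± 0.27, also in 22 of 22. Rps6ka2 (-1.34 ± 0.39), Mef2c (-1.20 ± 0.42), Crem (1.31 ± 0.38) and Map2k2 (0.83 ± 0.26) completed the named genes of TRAP_Chat against input and passed in 11 to 19 of 22 alternatives. In TRAP_Snap25 against input 3 passed as higher and 7 as lower, with a median of -0.17. The 7 are 23.3% of the list, against 12.7% of all tested genes, and the 3 of 30 are close to the 9.69% of all tested genes called higher. Crtc3, a coactivator of CREB, and Elk4, a partner of SRF, were lower there at -1.53 ± 0.35 and -1.50 ± 0.32 in 22 of 22 alternatives, and Rps6ka5 (-1.08 ± 0.37), Ppp3cb (0.92 ± 0.25) and Map2k2 (0.90 ± 0.26) in 8 to 20. Between the pulldowns 1 passed as higher, Mef2a (1.13 ± 0.33, in 9 of 22 alternatives), and 2 as lower, Camk4 and Camkk2.

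Of 17 partners and repressors of the encoded proteins, 3 passed as higher and 2 as lower in TRAP_Chat against input, with a median of -0.007. These are 17.6% and 11.8% of the list, against 12.6% and 14.3% of all tested genes. Mapk9 (0.97 ± 0.26) and Mapk10 (0.88 ± 0.23), which phosphorylate Jun, passed as higher in 21 of 22 alternatives each. Mapk8, a further kinase of Jun in the list, did not pass, with means of 39.2 CPM in PreIP_Chat and 47.5 CPM in TRAP_Chat. Rxra, a receptor that pairs with Nr4a1, passed as higher at 0.82 ± 0.25 in 17. Jdp2, a repressor of AP-1, was lower at -1.33 ± 0.31 in 22 of 22, and Arnt at -1.56 ± 0.45 in 19. In TRAP_Snap25 against input 2 passed as higher, Mapk9 (0.84 ± 0.26) and Mapk10 (0.74 ± 0.23), and 2 as lower, Arnt (-2.46 ± 0.47) and Nab1 (-1.09 ± 0.30), with a median of 0.19. Each direction holds 11.8% of the list, close to the 9.69% higher and 12.7% lower of all tested genes. Mapk9 passed there in 17 of 22 alternatives, Mapk10 in 15, Arnt in 22 and Nab1 in 19. Between the pulldowns Nab1, a corepressor of Egr proteins, was higher in TRAP_Chat at 1.33 ± 0.30, Rxra was higher at 1.11 ± 0.25 and Jdp2 was lower at -1.44 ± 0.31, with a list median of 0.02. Nab1 and Rxra lost this call without TRAP_Snap25 replicate 2, and Rxra without replicate 1 as well. Nab1, Rxra and Jdp2 also lost it when only the groups compared were fitted.

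Of 17 genes that control messenger RNA decay, 2 passed as higher and 7 as lower in TRAP_Chat against input, with a median of -0.68. These are 11.8% and 41.2% of the list, against 12.6% and 14.3% of all tested genes. The proteins of the Zfp36 family bind AU-rich elements and bring such messengers to decay. Zfp36l1 fell from 30.9 ± 5.76 to 3.81 ± 0.301 CPM, Zfp36l2 from 9.08 ± 3.61 to 0.944 ± 0.810 CPM and Zfp36 from 16.5 ± 2.11 to 4.59 ± 1.21 CPM (SD, n = 3 each), in 22 of 22 alternatives. Cnot7, a deadenylase subunit, rose from 19.5 ± 6.86 to 53.3 ± 15.5 CPM in 22 of 22 and Elavl2, a neuronal RNA-binding protein, by 1.18 ± 0.30 on the log2 scale in 21 of 22. In TRAP_Snap25 against input 6 passed as lower (35.3% of the list against 12.7% of all tested genes), led by Zfp36l2 at -3.68 ± 0.67, Zfp36 at -3.02 ± 0.49 and Zfp36l1 at -2.56 ± 0.47, all in 22 of 22 alternatives, and 0 as higher in edgeR (with 1 gene under 0.05 before adjustment, and 0 by DESeq2 or limma voom), with a median of -0.24. Between the pulldowns 1 passed as lower, Elavl1 (-0.84 ± 0.24, in 8 of 22), and 0 as higher (1 at an unadjusted p under 0.05, 1 in DESeq2, 0 in limma voom). The markers of oligodendrocytes and astrocytes fell in both pulldowns beside the Zfp36 genes, 8 of 8 and 6 of 6 in each, the 6 astrocyte markers from 781 to 1174 CPM in the inputs to 124 to 242 CPM in TRAP_Chat and 86.5 to 230 CPM in TRAP_Snap25 with none at 0, and their part was not tested.

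Between the pulldowns 3.97% of all tested genes were higher and 2.77% lower, and the 1 or 2 genes called in these lists are too few to set against those shares. In the difference between the lines no gene of these 4 lists passed in edgeR, with 3 other immediate early genes, 4 upstream genes, 4 partners and 0 decay genes at an unadjusted p under 0.05. Of all 15905 tested genes, 1833 had such a p. DESeq2 called 1 other immediate early gene, 1 upstream gene and 2 partners there, and limma voom called 0. Between the inputs 0 genes of the 4 lists had an unadjusted p under 0.05, and DESeq2 and limma voom called 0.

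The tested genes most like Egr1 over the 12 libraries, among 10534 genes averaging 5 CPM or more, were Slc30a3 with a Pearson r of 0.97, Slc6a17 with 0.96 and Gm13889 with 0.94. Slc30a3, a zinc transporter of synaptic vesicles, had group means of 56.3 CPM in PreIP_Chat, 16.1 CPM in TRAP_Chat, 51.2 CPM in PreIP_Snap25 and 92.8 CPM in TRAP_Snap25. For Fos the highest values were 0.80 for Ascc1, Fosl2 and Qars, and for Junb 0.88 for Cnih3 and 0.86 for Syt2 and Cttn. Fos and Junb thus had no gene as close to them as Egr1 had, and all these values describe 12 libraries that share scaling and group structure. Per library, Junb had 14 to 50 counts and Fos 81 to 277, against 538 to 3493 for Egr1. The highest values of the genes are therefore not like for like.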

How the data were processed

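The deposited table gives raw read counts per Ensembl gene for 12 libraries, which the authors made with STAR and HTSeq, as the submitters' processing notes list. Not given in the sources used here are their versions, the genome build, the annotation and the use of strand. Of its 41736 lines, 824 exact repeats were dropped. Samples were grouped by their titles. Counts were filtered with filterByExpr, scaled by TMM and fitted together, 1 mean per group, in edgeR 4.0.16 (R 4.3.3, glmQLFit and glmQLFTest); p-values are two-sided and adjusted by Benjamini-Hochberg over 15905 genes, with a threshold of 0.05. The fit was tested on simulated data with 200 changed genes. Floors of 3 counts cover counting error only. Alternatives were RLE scaling, library totals alone, no mitochondrial genes, DESeq2 1.42.0, limma voom (limma 3.58.1), no filter or 1 CPM in 3 libraries, only the groups compared, a replicate block, and each library left out. A further alternative, chosen after seeing the data, left out both TRAP_Chat replicate 1 and TRAP_Snap25 replicate 3. Members, related lists and markers were chosen with earlier results of these data known. The text names all 10 members and, per related list and comparison, up to 3 genes higher and 3 lower with the largest called change. A gene that this rule names among the upstream genes is not reported here.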

Additional observations from a re-analysis of the deposited data

How the results depend on the processing

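Without a filter, with DESeq2, limma voom, library totals alone, no mitochondrial genes, only the groups compared or a replicate block, 1 member in place of 0, Jun, was called higher in TRAP_Chat against input, and leaving out 1 library gave 0 to 1. Members lower there were 3, and 2 to 4 across alternatives: Arc gained the call with limma voom, no filter, only the groups compared, the replicate block, without TRAP_Snap25 replicate 3 and with both libraries named next left out. For members lower in TRAP_Snap25 against input, limma voom, the replicate block and leaving out both TRAP_Chat replicate 1 and TRAP_Snap25 replicate 3, chosen after seeing the data for their oligodendrocyte markers, gave 1 (Arc) in place of 0, and leaving out 1 library gave 0 to 1. Between the pulldowns, members higher were 0 with only the groups compared and 2 with both libraries left out (1 in the main analysis, 0 to 2 leaving out 1 library), and members lower were 1 with limma voom, only the groups compared or both libraries left out (2 in the main analysis, 1 to 2 leaving out 1 library). In the difference between the lines, members lower were 1 with library totals alone, limma voom, the 1 CPM filter, the replicate block or both libraries left out, 2 with DESeq2 or no filter, and 0 to 1 leaving out 1 library, in place of 0.

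Directions turned for Nr4a1 in TRAP_Snap25 against input (-0.069 with limma voom, -0.60 with both libraries left out, -0.61 to 0.69 leaving out 1 library), for Egr1 there (-0.069 with both left out, -0.071 to 0.77 leaving out 1), for Arc between the pulldowns (0.74 with limma voom, 0.23 with the replicate block, 1.44 with both left out, -0.61 to 1.58 leaving out 1), for Fos between the pulldowns (0.16 with both left out) and for Junb in TRAP_Chat against input (0.029 with both left out, -0.64 to 0.028 leaving out 1). Among the fits that left out 1 library, leaving out TRAP_Snap25 replicate 3 turned the first 3 and leaving out TRAP_Chat replicate 1 turned the last. The cause was not tested. Egr3 was not tested between the pulldowns with only the groups compared, where it failed the filter, and that setting cannot give the difference between the lines.

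Of all tested genes, those called higher in TRAP_Snap25 against input were 3289 with library totals alone and 890 with only the groups compared, against 1541. Between the pulldowns 1026 were higher and 746 lower with DESeq2, 1085 and 676 without a filter, 237 and 145 with only the groups compared, and 973 higher with both libraries left out, against 632 and 441. In the difference 54 were higher with library totals alone, 292 higher and 209 lower with DESeq2, 106 lower with limma voom, 269 and 184 without a filter and 211 and 139 with both left out, against 96 and 70. Between the inputs 1 was higher with DESeq2 and 6 higher and 1 lower without a filter. Leaving out 1 library gave 1191 to 2376 higher in TRAP_Chat against input, against 2005, and 675 to 1688 higher and 1298 to 2321 lower in TRAP_Snap25 against input, the latter against 2017; it gave 355 to 961 higher and 266 to 574 lower between the pulldowns, and 26 to 152 and 26 to 97 in the difference.

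An input and a pulldown with the same number share a suffix in their labels whose meaning is not given. Deviations of the 6 same-numbered pairs correlated with -0.04 to 0.17, not all above 0.1, and 8 of 12 libraries correlated best with their own number. Every Chat library did so (0.060, 0.102 and 0.127), and the exceptions were in the Snap25 line. All other pairs of the Chat line were below 0, which subtraction of group means partly forces where the same-numbered pairs are above 0. The pairing was not used in the main fit. With the replicate block Egr3 had -2.35 (edgeR adjusted p = 0.0808) and Arc -1.24 (0.0335) in TRAP_Chat against input. Fosb, Junb, Egr3, Npas4 and Ier2 rest on few counts, which limits what could be detected for them.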
